A study of Mus musculus with 6 samples.

Results

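The genes described here are 40 members of the mouse nuclear receptor superfamily, taken from a fixed list of symbols out of 21883 protein-coding genes in the RefSeq table of build GRCm38.p6 (mm10), and read in chromatin maps of estrogen receptor alpha (ERα), itself the product of one of them, Esr1. Nuclear receptors are regulators of transcription. Most members have a zinc-finger DNA-binding domain and a pocket for a small lipophilic ligand such as a steroid, a retinoid or a thyroid hormone. Many bind the hexamer AGGTCA: the estrogen receptors as homodimers on its inverted repeats, and the retinoid, thyroid, vitamin D and lipid receptors as heterodimers with a retinoid X receptor (RXR), chiefly on direct repeats. The glucocorticoid and mineralocorticoid receptors bind inverted repeats of another hexamer. In the limbic brain, ERα acts in neurons that control mating, aggression and endocrine feedback, and genes of other receptors are known targets through which a hormone can alter the response to further hormones.

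The maps came from CUT&RUN, in which an antibody directs micrococcal nuclease to a chromatin protein in isolated nuclei and the released fragments are sequenced. All animals were adult C57/BL6 males gonadectomized at 10 to 12 weeks of age, so both groups lacked gonadal hormone. After 3 weeks the estradiol group received 5 µg estradiol benzoate under the skin and the vehicle group corn oil, and limbic system nuclei were prepared 4 hours later. There were 3 libraries per group, numbered 1 to 3 by their labels, and each had 1 list of peaks. Nothing in the labels tells separate animals from pools or from repeats of 1 preparation, so the p-values measure only how far these libraries differ among themselves, and that spread may be technical. The tissue holds many cell types, and fewer nuclei with ERα cannot be told apart from less binding per nucleus. Expression and cell type markers are not measured by a peak list, so the labelled tissue was not checked against markers.

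The lists differed in length, with 5421, 13717 and 20541 peaks in vehicle libraries 1 to 3 and 11082, 14123 and 17558 in estradiol libraries 1 to 3. The list of vehicle 1 was the shortest. Replicate 3 of both groups carries shorter labels and another style of peak name than replicates 1 and 2, so values are also given for replicates 1 and 2 and for replicate 3. A peak belonged to a receptor gene if it lay inside the gene span or within 50 kb of it with that gene as the nearest protein-coding gene. It is called a gene-end peak within 1000 bp of either end of the span and a distal peak otherwise. Overlapping or directly adjoining peaks of the 6 lists were merged into regions. The height of a peak is given as its −log10 q, the authors' own value from the peak caller, which ranks peaks within a list. It is listed for each library and says nothing of a change between libraries. The 40 genes held 127 of the 39374 regions: 17 at gene ends, 81 farther inside a gene and 29 outside the span. Behind the 251 values of these regions stood 4 to 27 fragments at the summit, with a median of 6, as estimated from the deposited fold and p-value under the caller's default formula. Of these values, 132 (52.6%) rested on at most 6 fragments, so the lack of a peak does not show the lack of binding.

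The sequences shown first are the 250 bases before the start of 5 receptor genes. In each, some or all of these bases lay in a region found in 5 or 6 libraries. Esrra, Nr2c2 and Nr3c2 had a region there in all 6 libraries, and Ppard and Nr6a1 in all 3 estradiol and 2 vehicle libraries. They are from RefSeq, build GRCm38.p6, written 5′ to 3′ on the strand of the gene. Capitals mark the bases inside the merged region, which joins the peaks of all 6 lists, so a single library need not cover all of them.

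Esrra (chr19:6921809-6922058, minus strand): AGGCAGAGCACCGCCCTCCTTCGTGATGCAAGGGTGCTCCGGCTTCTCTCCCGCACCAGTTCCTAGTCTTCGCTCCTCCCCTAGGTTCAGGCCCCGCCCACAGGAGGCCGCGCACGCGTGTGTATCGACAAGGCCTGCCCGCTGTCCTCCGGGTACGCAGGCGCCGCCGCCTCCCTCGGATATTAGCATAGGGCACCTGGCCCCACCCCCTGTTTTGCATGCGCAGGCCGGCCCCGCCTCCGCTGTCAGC
Nr2c2 (chr6:92092183-92092432, plus strand): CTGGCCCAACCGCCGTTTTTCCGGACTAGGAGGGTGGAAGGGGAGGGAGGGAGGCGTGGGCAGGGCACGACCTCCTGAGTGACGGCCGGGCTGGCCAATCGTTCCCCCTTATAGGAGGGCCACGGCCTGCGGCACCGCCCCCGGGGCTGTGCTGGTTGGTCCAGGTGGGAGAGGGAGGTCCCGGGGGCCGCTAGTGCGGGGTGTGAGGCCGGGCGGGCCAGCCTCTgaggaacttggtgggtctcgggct
Nr3c2 (chr8:76902080-76902329, plus strand): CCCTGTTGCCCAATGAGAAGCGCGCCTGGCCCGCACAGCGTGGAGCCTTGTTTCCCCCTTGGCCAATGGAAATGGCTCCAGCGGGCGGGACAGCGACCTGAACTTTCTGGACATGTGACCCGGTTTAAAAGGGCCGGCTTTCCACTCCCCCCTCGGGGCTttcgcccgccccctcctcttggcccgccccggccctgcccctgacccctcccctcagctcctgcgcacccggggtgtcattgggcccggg
Ppard (chr17:28232504-28232753, plus strand): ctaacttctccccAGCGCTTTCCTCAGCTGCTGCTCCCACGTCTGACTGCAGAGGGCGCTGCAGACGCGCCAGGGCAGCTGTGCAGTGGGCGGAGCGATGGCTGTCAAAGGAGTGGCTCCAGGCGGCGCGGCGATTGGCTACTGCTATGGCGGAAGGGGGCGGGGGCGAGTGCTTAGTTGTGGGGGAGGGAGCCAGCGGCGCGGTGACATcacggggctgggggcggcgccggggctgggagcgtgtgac
Nr6a1 (chr2:38926462-38926711, minus strand): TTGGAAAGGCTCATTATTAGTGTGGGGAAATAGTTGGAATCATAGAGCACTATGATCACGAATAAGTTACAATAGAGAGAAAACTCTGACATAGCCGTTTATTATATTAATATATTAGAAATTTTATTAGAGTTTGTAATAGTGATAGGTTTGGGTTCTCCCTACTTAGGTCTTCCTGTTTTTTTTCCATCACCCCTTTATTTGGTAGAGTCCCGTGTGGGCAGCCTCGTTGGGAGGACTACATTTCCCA

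In windows of 300 bases (250 before to 50 after each RefSeq start), 57 starts of 36 receptor genes were searched on both strands. For Nr5a1, Thra, Nr3c1 and Hnf4g no window was used here. Of the 57 windows, 13, belonging to 12 genes, overlapped a region (22.8%, against 24.5% of all 32851 windows), and 3 overlapped a region found in all 6 libraries (5.26%, against 7.21%). None of the 57 windows held the full estrogen response element GGTCANNNTGACC, which was in 0.0700% of all windows and in 0 of the 2369 windows with a region in all 6 libraries. The hexamer AGGTCA was in 0 of 13 receptor windows with a region, against 10.0% of all windows with a region in all 6 libraries. It was in 11 of the 44 without (25.0%), against 18.2% of all windows with no region. Of all windows, 16.3% held it. Only 3 of the 13 had a region in all 6 libraries, and motif shares over all windows with a region in any library were not computed. The direct repeat AGGTCANAGGTCA, which contains that hexamer, was in none of the 57 and in 0.0396% of all windows. The promoter letters that were frequent were of another kind. GGGCGG, the GC box bound by Sp-family factors, was in 8 of the 13 covered windows (61.5%) and 15 of the 44 others (34.1%). It was in 35.7% of all windows, 73.0% of those with a region in all 6 libraries and 25.3% of those with no region. CCAAT, the box bound by NF-Y, was in 8 of 13 (61.5%) and 12 of 44 (27.3%), against 37.4%, 64.8% and 34.4%. The cyclic AMP element TGACGTCA was in 1 of 13 and 1 of 44, against 1.79% of all windows and 0.944% of those with no region. The AP-1 site TGANTCA was in 0 of 13 and 3 of 44, against 7.81% and 9.14%. Of the windows printed above in part, Esrra held 2 GC boxes and no CCAAT, Nr2c2 held 2 and 1, Nr3c2 held 3 of each, and Ppard held 3 and 1. The Nr6a1 window, with 42.3% G and C, held neither of these boxes and held the TGACGTCA found among the covered windows, which lies after the start. The median number of CpG dinucleotides was 20 in the covered receptor windows and 8.5 in the others. It was 7 in all windows, 5 in those with no region and 23 in those with a region in all 6 libraries. Such matches describe letters in a window and are not binding sites.

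The number of receptor genes with a peak did not separate the treatments. Gene-end peaks were found at 4, 10 and 11 receptor genes in vehicle libraries 1 to 3 and at 7, 12 and 9 in estradiol libraries 1 to 3. The groups overlapped, and vehicle 1 was lowest. The means were 8.33 ± 3.79 (SD, n = 3) with vehicle and 9.33 ± 2.52 (SD, n = 3) with estradiol. This difference of 1.0 gene gave p = 0.8 in a two-sided exact permutation test, in which 3 libraries against 3 can reach 0.1 at the lowest. It was 2.5 within replicates 1 and 2 and −2 in replicate 3, and −1.17 without vehicle 1 and −0.333 without estradiol 2. Distal peaks were found at 10, 19 and 20 receptor genes with vehicle and at 16, 15 and 19 with estradiol, again with overlapping groups. The means of 16.3 ± 5.51 and 16.7 ± 2.08 (SD, n = 3 each) differed by 0.333 (exact permutation test, two-sided p = 1.0), and by 1.0 within replicates 1 and 2 and −1.0 in replicate 3. Without vehicle 1 the difference in distal peaks was −2.83, and without estradiol 3 it was −0.833.

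**Figure D1:**
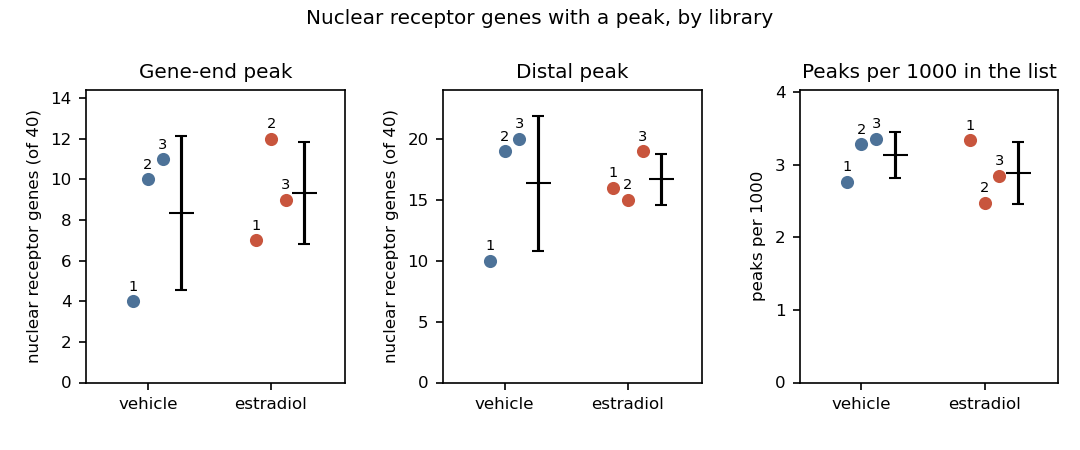
Number of receptor genes (of 40) with a gene-end peak (left) and a distal peak (middle), and receptor peaks per 1000 peaks of the list (right), by group. Each point is 1 library, numbered by replicate, and bars are the mean ± SD (n = 3). The groups overlap in each panel, and vehicle 1, the shortest list, is lowest in the left and middle panels (4 and 10 genes).

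Counted as peaks, the receptor genes also showed overlapping groups. The receptor genes held 15, 45 and 69 peaks with vehicle and 37, 35 and 50 with estradiol. Per 1000 peaks of the same list these were 2.77, 3.28 and 3.36 with vehicle and 3.34, 2.48 and 2.85 with estradiol. On this scale the groups overlapped, at 3.14 ± 0.322 and 2.89 ± 0.432 (SD, n = 3 each), a difference of −0.247 (exact permutation test, two-sided p = 0.6), with −0.115 within replicates 1 and 2 and −0.511 in replicate 3. With the 6 lists cut to equal length this difference was 0.369, that is, in the other direction. Within a list, gene-end peaks of receptor genes ranked higher by −log10 q than distal ones, with median percentile ranks of 53.9 to 66.6 against 39.0 to 49.0 over the 6 libraries. For all protein-coding genes the same ranks were 65.0 to 70.2 and 37.8 to 43.9.

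Read against all protein-coding genes, the receptor genes had about the background share of gene-end peaks and more distal ones. A gene-end peak in at least 1 library was found at 14 of 40 receptor genes (35.0%), where 37.7% of all genes had one, and a gene-end peak in all 6 libraries at 3 of 40 (7.5%), where 9.39% of all genes had one. Without vehicle 1 the latter count was 5 (12.5%), against 14.3% of all genes. In more estradiol than vehicle libraries a gene-end peak was found at 6 of 40 (15.0%, background 12.6%), namely Rxrb, Rxrg, Thra, Thrb, Ppard and Nr6a1. The reverse held for 3 of 40 (7.5%, background 8.72%), namely Nr1h3, Rora and Rorb. Ppard and Nr6a1 lacked a gene-end peak in vehicle 1 alone, the shortest list. The Rxrb region was in 2 vehicle and 2 estradiol libraries, but the vehicle 2 peak lay nearer to Slc39a7 and did not count. Where another gene could be nearer, Nr1h3 had a gene-end peak in all 6 libraries. A distal peak in at least 1 library was found at 25 of 40 (62.5%, background 40.8%) and in all 6 libraries at 7 of 40 (17.5%, background 4.51%), namely Nr3c2, Esrrg, Rxra, Thra, Rora, Nr2f1 and Nr2f2. A gene counts here even if its peaks lie at different places. Only 4 distal regions were themselves in all 6 libraries, and none of these belonged to Esrrg, Thra or Rora. The one of Nr3c2 lay 91 bp before a RefSeq start of that gene. Distal peaks were in more estradiol than vehicle libraries at 6 of 40 (15.0%, background 14.8%), Rxrg, Rarb, Rarg, Nr1i2, Rorb and Nr6a1. They were in more vehicle than estradiol libraries at 6 of 40 (15.0%, background 12.7%), Esr1, Nr3c1, Ppara, Nr1h2, Hnf4a and Nr2c2. The first of these counts was 11 (27.5%) without vehicle 3, where the background was 22.1%. The second was 10 (25.0%, background 20.1%) without vehicle 1 and 11 (27.5%, background 18.8%) without estradiol 3, with genes compared by the share of each group's libraries. No peak in any library was found for 10 of 40 (25.0%, background 39.1%).

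**Figure D2:**
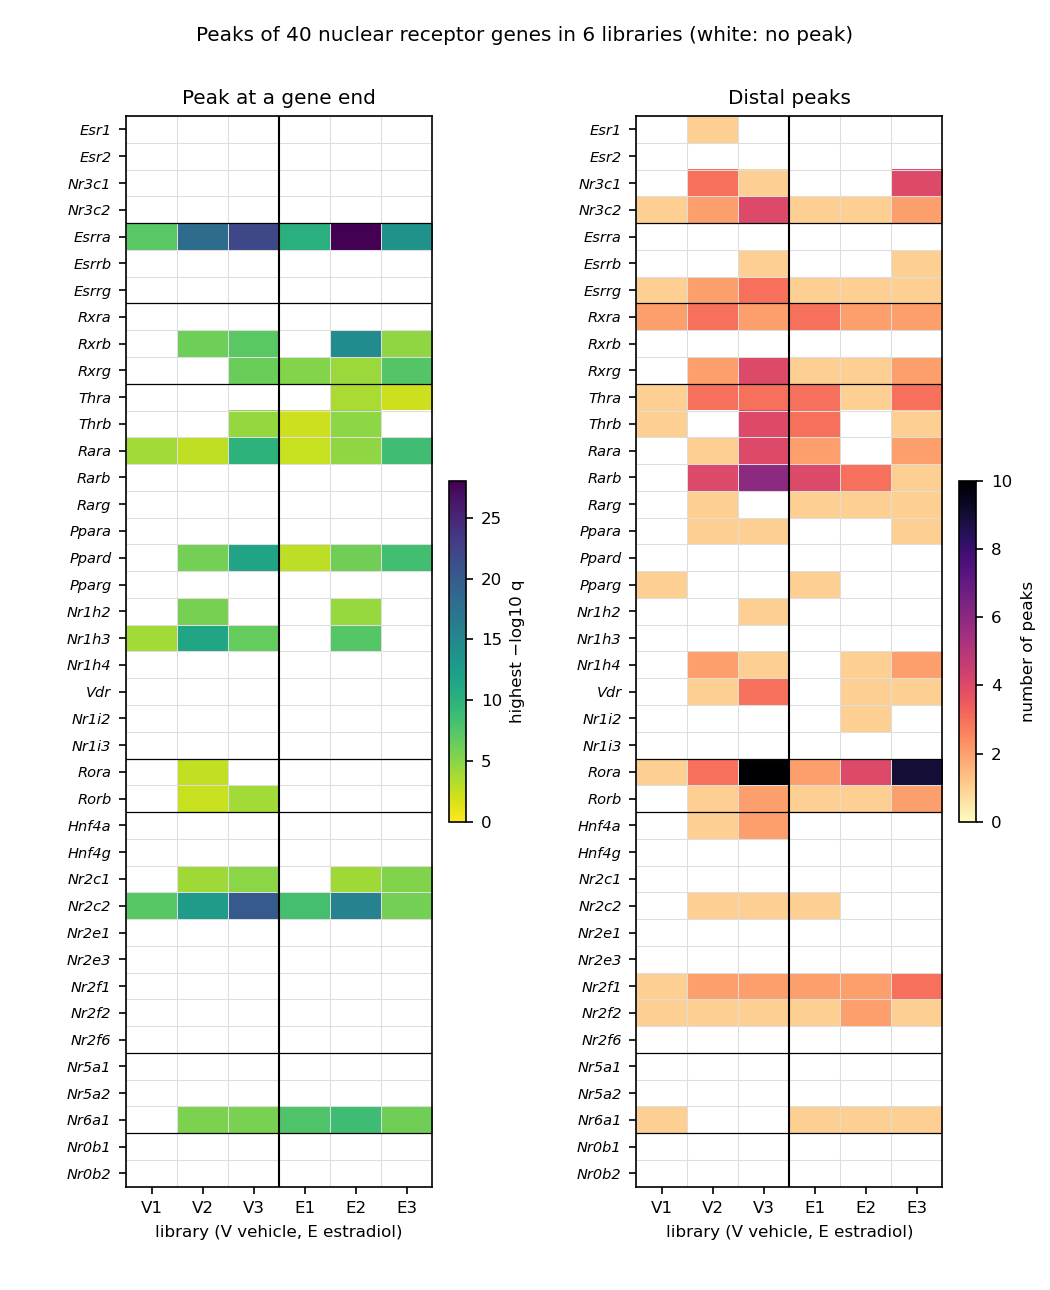
Highest −log10 q in a gene-end region (left) and number of distal peaks (right) for each of the 40 receptor genes, grouped by role, in each of the 6 libraries. White cells have no peak. Esrra, Rara and Nr2c2 are filled across all 6 libraries on the left and 7 genes on the right, 10 genes are white throughout, and the Rxrb cell of vehicle 2 comes from the region shared with Slc39a7.

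The receptor genes are long, with a median span of 55.4 kb against 17.2 kb for all genes. The 81 regions that lay inside a receptor gene away from its ends came to 15.8 per Mb of span, against 14.3 per Mb for the 15026 such regions of all genes. The 6 genes with a span over 300 kb (Esr1, Nr3c2, Esrrg, Thrb, Rarb and Rora) held 45 of them, 14.5 per Mb. Across the 40 genes, log10 of the span and the number of distal regions correlated with Pearson's r = 0.561 and Spearman's rho = 0.552, a description over genes that share the same libraries and are not replicates. Rora, the longest at 735 kb, had 20 distal regions, and Esr1, at 394 kb, had 1.

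**Figure D3:**
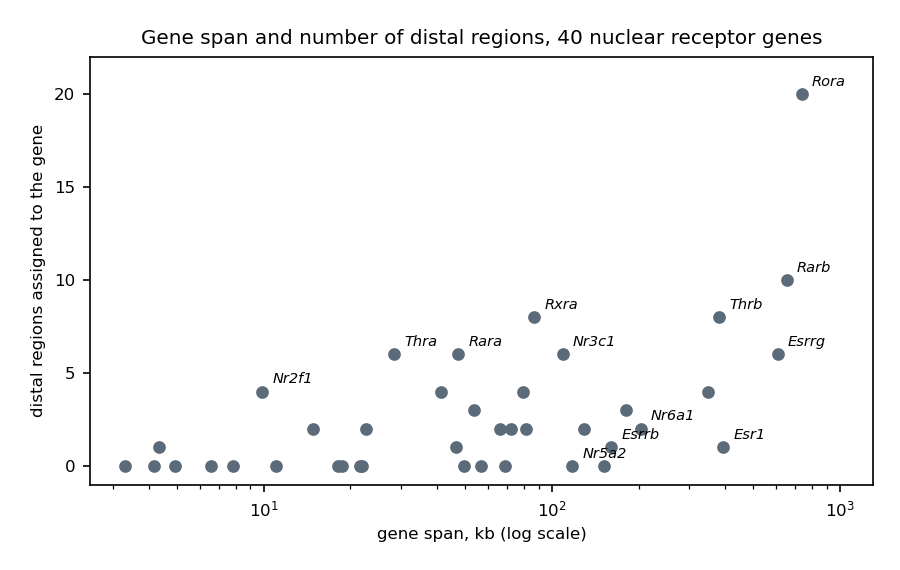
Number of distal regions against the length of the gene span (log axis, kb) for the 40 receptor genes, 1 point per gene. Rora (735 kb, 20 regions) and Rarb (651 kb, 10 regions) are at the upper right, and Esr1 (394 kb, 1 region) lies low among the long genes.

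Among the steroid receptor genes, the gene of ERα itself was nearly empty of peaks. Esr1 had 1 region, chr10:4598408-4598486, 13.5 kb outside the span, found in vehicle 2 alone at a −log10 q of 2.88 with 4 fragments. Esr2, which encodes estrogen receptor beta, had no peak in any of the 6 lists. Nr3c2, the mineralocorticoid receptor, which binds aldosterone and, with high affinity, corticosterone, had 1 of the 7 regions found in all 6 libraries. This region, chr8:76902048-76902239, lay 3965 bp inside the span and 91 bp before a RefSeq start of the gene, whose sequence is shown above. Its −log10 q was 4.70, 6.90 and 9.57 with vehicle and 8.45, 9.44 and 20.7 with estradiol. A second Nr3c2 region, 8.09 kb from the 3′ end, had 4.78 and 21.1 in vehicle 2 and 3 and 17.8 in estradiol 3. Nr3c1, the glucocorticoid receptor, had 6 distal regions and no gene-end region, and 5 of the 6 were in 1 library each. The remaining one was in vehicle 2 and 3 (4.78 and 8.76) and estradiol 3 (3.82).

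Of the estrogen-related receptors, orphan receptors close in sequence to the estrogen receptors that do not bind estradiol, Esrra had the region that most often led the receptor genes within a list. Esrra encodes ERRα, a regulator of mitochondrial and energy metabolism genes. Its region, chr19:6921768-6922153, covered the start of the gene, with an end of Catsperz within 1000 bp. The −log10 q was 7.18, 18.0 and 21.9 in vehicle 1 to 3, from 11, 19 and 23 fragments. It was 10.2, 28.1 and 13.6 in estradiol 1 to 3, from 13, 27 and 16 fragments. Within a list it was the highest of all receptor regions in vehicle 2, vehicle 3 and estradiol 2, and was 4th or 5th in the other libraries. The highest there were Rxra in vehicle 1, Nr2f1 in estradiol 1 and Nr3c2 in estradiol 3. Esrrg had a distal peak in each of the 6 libraries but no region shared by more than 3 of them, with 6 regions spread over its 606 kb span and 4 of these in 1 library. Esrrb had 1 region, in replicate 3 of both groups, at 7.27 with vehicle and 3.82 with estradiol.

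The retinoid X receptors are the common heterodimer partners of the ligand-regulated group that follows. Rxra had a region in all 6 libraries, chr2:27758554-27758659, inside the gene and 4.66 kb from its 3′ end. Its −log10 q was 12.0, 14.0 and 18.1 with vehicle and 11.6, 13.4 and 19.4 with estradiol, which put it among the 4 highest receptor regions of each list. The other 7 Rxra regions were in 1 or 2 libraries. Rxrg, the form with the narrowest tissue distribution, had a region 53 bp from its start, chr1:167598415-167598518, in all 3 estradiol libraries and 1 vehicle library. The −log10 q there was 3.88, 4.16 and 7.54 with estradiol and 6.29 in vehicle 3. A neighbouring Rxrg region 222 bp from the start was in estradiol 1 and 3 (5.17 and 4.10) and in vehicle 3 (3.99). Another, inside the gene 10.2 kb from its 5′ end, was in all libraries but vehicle 1, at 9.11 and 3.24 with vehicle and 3.26, 8.97 and 9.91 with estradiol. Rxrb shared its only region with the neighbouring gene Slc39a7, so its peaks cannot be assigned to Rxrb alone, and in vehicle 2 the peak lay nearer to Slc39a7 and did not count for Rxrb. The region had 6.14 and 7.17 in vehicle 2 and 3 and 14.5 and 4.61 in estradiol 2 and 3.

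**Figure D4:**
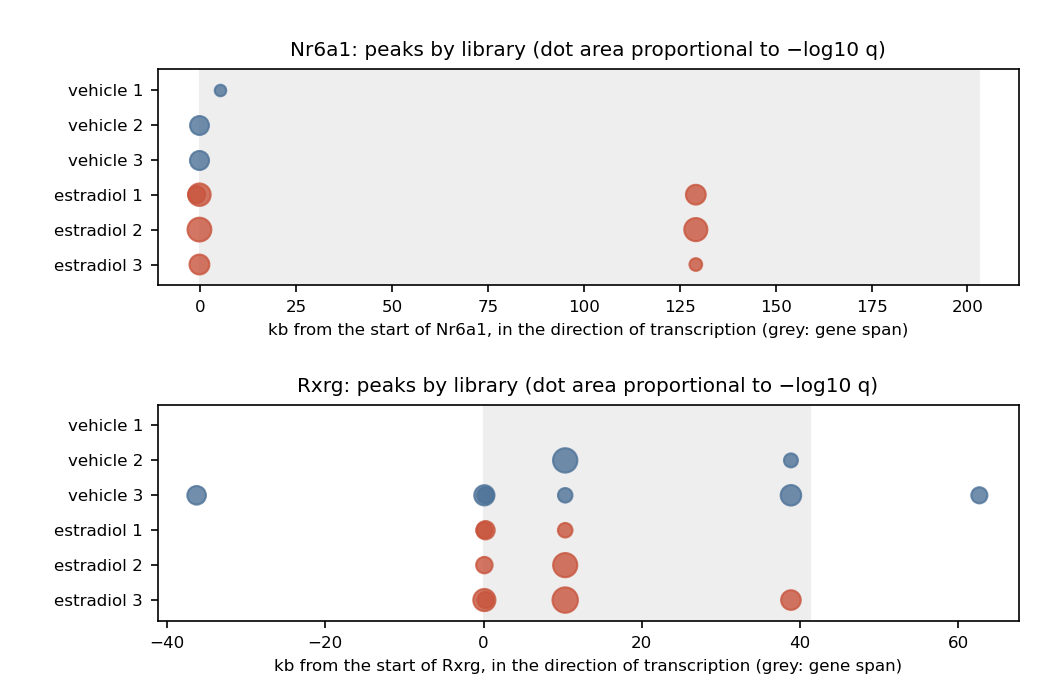
Peaks at Nr6a1 (top) and Rxrg (bottom) in each of the 6 libraries, by distance in kb along the gene from its start, with the gene span in grey and dot area proportional to −log10 q. Both genes have a cluster of peaks at the start. Deep inside Nr6a1 a peak is seen at 1 place in the 3 estradiol libraries, and vehicle 1 has its peak 5.24 kb from the start.

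The ligand-binding partners of RXR were the largest group, with 14 genes. Of these, 13 had a peak in at least 1 library and 1, Nr1i3, had none, where 39.1% of all genes had none. The group holds long genes such as Thrb (381 kb) and Rarb (651 kb), and the count was not adjusted for span. Rara, retinoic acid receptor alpha, had a region in all 6 libraries at its 3′ rather than its 5′ end, chr11:98975516-98975599, 574 bp beyond the span. Its −log10 q was 3.86, 2.70 and 9.92 with vehicle and 2.32, 4.64 and 8.63 with estradiol, and it stood between 7th and 39th among the receptor regions of a list. A region 67 bp from another Rara start, which also lies in the protein-coding gene model Gm46294 and cannot be assigned to Rara alone, was found in replicate 3 of both groups (6.27 and 5.77). Rarg, retinoic acid receptor gamma, had a region over a RefSeq start in estradiol 2 and 3 (3.05 and 3.71, 5 and 6 fragments) and no vehicle library. Rarb, retinoic acid receptor beta, had 10 distal regions over 651 kb, of which 6 were in 1 library.

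The thyroid hormone receptor genes had more scattered peaks. Thra had a region 107 bp outside one end of its span in estradiol 2 and 3 (3.58 and 2.15) and no vehicle library. Inside Thra, 6.74 kb from the nearer end, a region was found in all libraries but vehicle 1, with 7.31 and 5.73 under vehicle and 3.47, 3.82 and 11.4 under estradiol. Thrb had a region over the 5′ end of its span in vehicle 3 (4.45) and in estradiol 1 and 2 (2.11 and 4.73), within 1000 bp of an end of the gene model LOC115488350, and 7 of its 9 regions were in 1 library.

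Among the lipid sensors, Ppard, a fatty acid receptor that promotes fatty acid oxidation, had 1 region, chr17:28232517-28232713, 41 bp before its start. The −log10 q was 5.90 and 11.7 in vehicle 2 and 3 and 2.81, 6.10 and 8.50 in the estradiol libraries. Vehicle 1, the shortest list, had no Ppard peak. Nr1h3 encodes the oxysterol receptor LXRα. Its region chr2:91202747-91202913 had 3.86, 11.4 and 6.59 in the 3 vehicle libraries and 7.40 in estradiol 2 alone. That region covers the 5′ end of the Nr1h3 span and also the start of Acp2, a lysosomal acid phosphatase gene, so it cannot be assigned to Nr1h3 alone. Nr1h2, the other oxysterol receptor, had a region 20 bp from its start in vehicle 2 (5.76) and estradiol 2 (4.35). Where another gene could be nearer, a definition added later, Nr1h3 and Nr1h2 each had a gene-end peak in all 6 libraries. Ppara, the fatty acid receptor of fasting metabolism, had a region 25.3 kb away in vehicle 2 and 3 (4.59 and 5.02) and another, 18.6 kb away, in estradiol 3 alone (6.45, from 8 fragments). Pparg, the regulator of fat cell formation, had 2 regions in 1 library each (3.33 and 2.65). Nr1h4, the bile acid receptor, had 4 distal regions with values up to 3.89. Vdr, the vitamin D receptor, had 3 regions outside its span, 1 of them in replicates 2 and 3 of both groups (6.69 and 6.69 with vehicle, 3.54 and 3.07 with estradiol). Nr1i2, the xenobiotic receptor PXR, had 1 peak, in estradiol 2 (4.11), and Nr1i3 had none.

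Rora and Rorb encode orphan receptors of the cerebellum, retina and circadian clock. Rora had 21 regions, 14 of them in 1 library, and none in more than 3. Its only gene-end region was in vehicle 2 alone (2.61, from 5 fragments), with a RefSeq start of Gm31325 within 1000 bp. Its distal regions numbered 1, 3 and 10 with vehicle and 2, 4 and 9 with estradiol, highest in replicate 3 of both groups. One of them, chr9:68954278-68954371, 301 kb inside the gene, was in vehicle 2 and 3 (6.38 and 8.85, from 7 and 10 fragments) and in no estradiol library. Rorb had 2 regions at its start, each in 1 vehicle library (2.39 in vehicle 2 and 3.83 in vehicle 3). Another Rorb region, 17.7 kb before the start, was in all libraries but vehicle 1, with 7.66 and 12.1 under vehicle and 5.78, 6.67 and 10.3 under estradiol.

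The HNF4 and NR2 group held 3 of the 7 regions found in all 6 libraries. Nr2c2, the testicular receptor TR4, had its region at chr6:92092182-92092408, 25 bp before a RefSeq start. Its −log10 q was 7.26, 12.7 and 20.1 with vehicle and 8.21, 15.5 and 5.84 with estradiol, and it was 2nd or 3rd among the receptor regions in all libraries but estradiol 1 (7th) and estradiol 3 (21st). Its paralogue Nr2c1 had a region over its start in replicates 2 and 3 of both groups, at 3.97 and 4.82 with vehicle and 4.00 and 5.35 with estradiol. Nr2f1 and Nr2f2, the COUP transcription factors of forebrain patterning, had regions in all 6 libraries away from their ends. That of Nr2f1, chr13:78182068-78182128, lay 6.84 kb beyond the 3′ end, with 6.37, 10.3 and 13.6 under vehicle and 14.8, 9.85 and 13.0 under estradiol. That of Nr2f2, chr7:70361710-70361914, lay inside the gene 4.83 kb from its start, with 8.03, 11.0 and 6.44 under vehicle and 11.0, 10.3 and 10.8 under estradiol. A further Nr2f1 region, chr13:78201668-78201800, lay 2.80 kb before the start and was in all 3 estradiol libraries (2.12, 5.94 and 6.46) and in vehicle 3 (4.98). Hnf4a, a liver and gut regulator, had 2 distal regions, 1 in vehicle 2 and 3 (2.99 and 2.84) and 1 in vehicle 3 (2.65). No peak was found at Hnf4g, Nr2e1, Nr2e3 or Nr2f6.

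**Figure D5:**
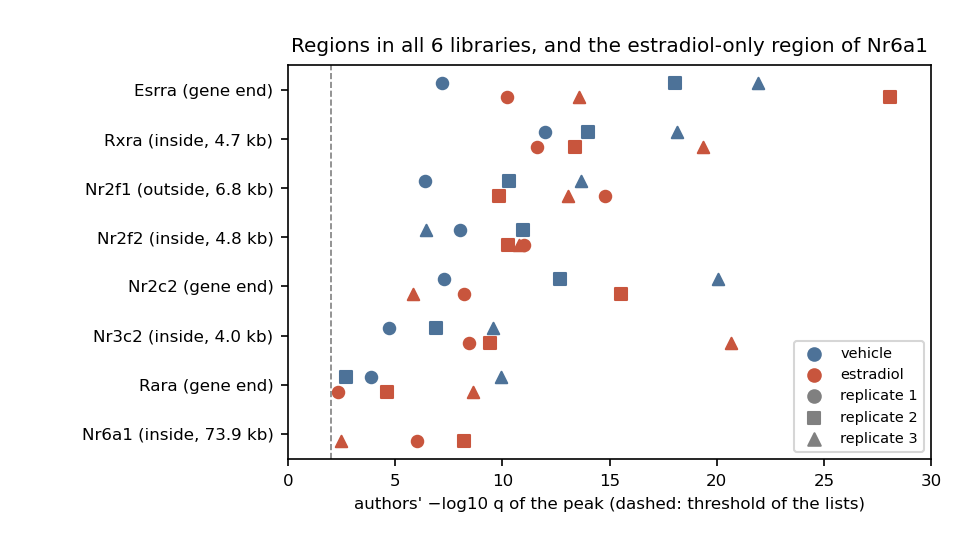
−log10 q of each library's peak in the 7 regions found in all 6 libraries and in the estradiol-only region of Nr6a1, coloured by group, with the position relative to the gene span beside each name. Symbols mark replicates 1 to 3, and the dashed line is the threshold of the lists. Values order the regions within a library: Esrra is highest in vehicle 2, vehicle 3 and estradiol 2, Rxra in vehicle 1, Nr2f1 in estradiol 1 and Nr3c2 in estradiol 3.

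Nr6a1, the germ cell nuclear factor GCNF, which silences pluripotency genes in early development, held the only one of the 127 regions with a peak in all 3 estradiol and no vehicle library (0.787%, background 0.737%). It is chr2:38797222-38797303, inside the gene, 73.9 kb from the 3′ end of the span and 12.7 kb from the nearer of its RefSeq starts. The −log10 q was 6.01, 8.20 and 2.47 in estradiol 1 to 3, from 6, 7 and 4 fragments, so the peak of estradiol 3 rested on the smallest number found in these regions. The region was not in all 3 estradiol libraries once a −log10 q of at least 5 was asked for, or with lists of equal length. At its start Nr6a1 had another region, chr2:38926462-38926803, with 5.49 and 5.58 in vehicle 2 and 3 and 7.75, 8.72 and 6.06 with estradiol. Vehicle 1, the shortest list, had no peak there. It had a single Nr6a1 peak, inside the gene 5.24 kb from the start, at 2.02 with 4 fragments, which no other library had. Nr5a1 (SF-1), which defines the ventromedial hypothalamus and drives steroid-producing enzymes, had no peak in any of the 6 lists, and neither had Nr5a2, Nr0b1 or Nr0b2.

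Over all 127 regions, 7 (5.51%) were in all 6 libraries, where 7.27% of all regions were, and 73 (57.5%) were in 1 library, where 58.9% were. Those in 1 library numbered 6, 13 and 24 in vehicle 1 to 3 and 10, 7 and 13 in estradiol 1 to 3. No region was in all 3 vehicle and no estradiol library (background 0.112%). In 2 of 3 estradiol and no vehicle libraries there were 4 regions (3.15%, background 2.97%), of Thra, Rarg, Rxra and Rora. In 2 of 3 vehicle and no estradiol libraries there were 6 (4.72%, background 2.49%), of Nr1h4, Thrb, Ppara, Hnf4a and, with 2 regions, Rora. Without vehicle 1, 12 of 121 regions were in all of the remaining libraries (9.92%, background 11.9%), and 5 were in both remaining vehicle libraries and no estradiol library (4.13%, background 2.29%). Without vehicle 3, 3 of 103 regions were in all estradiol and no vehicle libraries (2.91%, background 2.01%), at Rxrg, Nr2f1 and Nr6a1. That count was also 3 without estradiol 1 (2.54%, background 2.70%) and without estradiol 2 (2.5%, background 1.5%). Without vehicle 2 or without estradiol 2, 1 region was in all vehicle and no estradiol libraries (0.870% and 0.833%, backgrounds 0.388% and 0.274%).

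Other genes of the same pathway were read in the same way, as lists that were also chosen with earlier results known. Of the 8 superfamily genes outside the 40, 4 had a gene-end peak in any library (background 37.7%), namely Nr1d1, Nr1d2, Nr4a1 and Nr4a3. Those 4 of 8 had it in more estradiol than vehicle libraries, as did 6 of the 40 and 12.6% of all genes. Nr1d1 and Nr1d2 encode the clock repressors REV-ERBα and REV-ERBβ, and the Nr4a genes are induced early by neural activity. Distal peaks were in more estradiol than vehicle libraries at 3 of the 8 (background 14.8%), including Pgr, the progesterone receptor, and Nr1d2. None of the 8 showed the reverse (background 12.7%). A list of 8 genes is too short to read any of these counts as a result. Of 15 matched genes for ligand synthesis and inactivation, Srd5a1, a 5-alpha reductase, and Cyp46a1, the brain cholesterol hydroxylase, had a gene-end peak in all 6 libraries (2 of 15, background 9.39%) and the others none. Distal peaks were at 10 of the 15, including Cyp19a1, the aromatase that makes estradiol in the brain, where 40.8% of all genes had one. They were in more estradiol libraries at 1, Dio3 (background 14.8%), and in more vehicle libraries at 3, Hsd11b2, Aldh1a1 and Cyp46a1 (background 12.7%). These counts carry no test.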

How the data were processed

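The 6 libraries, 3 per group, were grouped by the treatment tag or the title in their labels. Tools listed in the submitters' processing notes are MACS2, Bowtie2, cutadapt, SAMtools, Picard and deepTools, with the build mm10. Their roles, their versions and any control library are not given in the sources used here. The deposited lists give for each peak a score, a fold enrichment at the summit, a −log10 p, a −log10 q and the summit; these are the authors' values and were used to describe peaks and to order them within a list.

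Peaks were assigned to genes of the RefSeq table (GRCm38.p6) with Python 3.11.15, numpy 2.4.6, pandas 2.3.3 and scipy 1.17.1, and the assignment was tested on simulated peaks. Peaks that overlapped or directly adjoined each other were merged into regions. The test of group means was an exact permutation test, two-sided. Shares over all protein-coding genes or all regions are the background. The members and lists were chosen with earlier results of these data known. Values per library were given for genes with a gene-end region in all 6 libraries, or a region in 3 of 3 libraries of one group and at most 1 of the other, or in 2 of 3 and none with a −log10 q of at least 5 in both, and for Esr1, Esr2 and Nr5a1; the other regions described were picked after their values were seen. Sts did not match the table, and some genes of the further lists are not reported here. The alternatives changed list length, the −log10 q minimum, the window, the gene-end distance, the peak position, the merging and the libraries used. Further gene-end definitions were added after the data were seen.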

Additional observations from a re-analysis of the deposited data

How the results depend on the processing

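The counts rest on peaks of few fragments, on lists of unequal length and on 3 libraries per group, and a gene span without exons. With lists of equal length, the gene-end difference was 0, the difference per 1000 peaks turned to 0.369, 1 gene (Esrra) kept a gene-end peak in all 6 libraries, 4 regions were in all 6 and 0 were estradiol-only. At a −log10 q of at least 5, the distal difference was 0 and 0 regions were estradiol-only. With a gene end of 500 bp, 1 gene (Esrra) had it in all 6 libraries. With 1000 bp and where another gene could be nearer, 5 did (Esrra, Nr1h2, Nr1h3, Nr2c2 and Rara). The latter definition was added after the data were seen. Where a peak had to cover 50% of a region, 2 regions (Esrra and Rxra) were in all 6 and 1 (Nr1h3) was vehicle-only. Under these settings the shares over all genes and all regions were not computed. These changes in count therefore cannot be read as particular to the receptor genes. Leaving out each library in turn moved the gene-end difference from −1.17 to 2.33 (−0.333 without estradiol 2), the distal difference from −2.83 to 2.17 (−0.833 without estradiol 3), the per 1000 difference from −0.473 to −0.0424, the all-6 gene-end count from 3 to 5, the distal counts from 5 to 11 (more estradiol) and from 6 to 11 (more vehicle), the all-6 regions from 7 to 12, the estradiol-only regions from 1 to 3 and the vehicle-only regions from 0 to 5; the cause was not tested. With a replicate block the differences were 1.0, 0.333 and −0.247, which the block leaves as they are by construction, with exact paired p = 0.75, 1.0 and 0.75. Deviations of same-numbered libraries correlated at 0.0740, 0.0184 and 0.0515 over 120 regions, too weakly to treat the numbers as pairs, though 6 of 6 libraries correlated best with their own number. Apart from the block, 84 of 110 recomputed values kept the direction of a difference, whose size often changed, or stayed within 1.5 times a count.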
